A study of Mus musculus with 30 samples.

Results

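Pericytes and vascular smooth muscle cells, together called mural cells, were followed in the mouse retina through 10 genes: Pdgfb, Pdgfrb, Rgs5, Cspg4, Kcnj8, Abcc9, Acta2, Des, Notch3 and Anpep. They were chosen by name, as probe sets that the array's annotation assigned to 1 of these symbols. Their values did not enter that rule, but the genes were chosen with earlier results of these data known. All 10 were on the array, as 19 probe sets, among 12393 genes tested. Where a gene had several, the brightest probe set on average stands for it, and the further ones, held by 7 genes, served as a check.

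Total RNA was measured in 30 retinas, each of a different pup, 3 to a group. In oxygen-induced retinopathy (OIR), the model used, pups were kept in 75% oxygen from postnatal day 7 (P7) for 5 days and then returned to room air, which leaves the inner retina short of capillaries and then of oxygen. The normoxia group breathed room air and the untreated OIR group received no injection. The other 8 groups were OIR pups injected into the vitreous at P5, before oxygen, or at P12, on return to room air, with saline, with 100000 endothelial colony-forming cells (ECFC), with 10000 CD34+ cells, or with a combination of 110000 cells. ECFC are circulating cells that form endothelial colonies in culture, and CD34 marks blood progenitor cells. The sources used here do not give strain, sex or litter of the pups, or the donors of the cells; p-values then measure the spread between these pups. Sex can be read from the arrays by Xist, an RNA of female cells, which was above 8 log2 units on 14 of 30. The P12 combination arrays all read as male (Xist 5.03 to 5.51) and the P5 combination arrays all as female (12.28 to 12.48). Sex was thus not balanced between groups, and it was in no fit. The labels put every retina at P17. The treatment protocol, however, has mice killed on P12 or on P17, and in the design text of the series P5 injections go with P12 retinas. If the design text holds, each comparison of a P5 group with normoxia, untreated OIR or a P12 group also compares ages, while P5 groups compared with each other are of 1 age, and in the former the cause of a difference cannot be told apart.

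Mural cells wrap the endothelial tube: pericytes sit on capillaries, where they steady the vessel and the blood-retina barrier, and smooth muscle cells sit on arterioles, whose calibre they set. Sprouting endothelium secretes the growth factor made from Pdgfb, and pericytes follow it through the receptor encoded by Pdgfrb. In the retina, loss of this signal leaves capillaries without pericytes. Whole retinas were measured, so fewer mural cells and less RNA per mural cell cannot be told apart in any value here.

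Stretches of DNA just before the start site are shown for the member that varied most among the groups, Acta2, and for those that differed most clearly in untreated OIR and between injection days, Cspg4 and Rgs5. They come from RefSeq on GRCm38.p6, which lists such a stretch for 8 of the 10 members, and each gives the 250 bases before the start, 5′ to 3′ on the strand of the gene. The stretches are chr19:34255374-34255623 (minus strand) for Acta2, chr9:56864854-56865103 (plus strand) for Cspg4 and chr1:169655251-169655500 (plus strand) for Rgs5. Capitals mark letters that match a searched motif.
Acta2: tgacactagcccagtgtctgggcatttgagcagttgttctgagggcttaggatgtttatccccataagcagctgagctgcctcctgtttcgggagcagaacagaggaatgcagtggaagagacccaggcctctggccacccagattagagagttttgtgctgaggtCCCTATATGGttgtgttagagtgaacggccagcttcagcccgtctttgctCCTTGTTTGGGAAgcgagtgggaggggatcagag
Cspg4: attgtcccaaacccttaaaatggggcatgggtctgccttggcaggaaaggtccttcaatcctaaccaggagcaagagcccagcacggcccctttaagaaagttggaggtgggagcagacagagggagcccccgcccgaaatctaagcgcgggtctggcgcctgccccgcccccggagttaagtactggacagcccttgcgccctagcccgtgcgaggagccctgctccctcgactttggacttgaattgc
Rgs5: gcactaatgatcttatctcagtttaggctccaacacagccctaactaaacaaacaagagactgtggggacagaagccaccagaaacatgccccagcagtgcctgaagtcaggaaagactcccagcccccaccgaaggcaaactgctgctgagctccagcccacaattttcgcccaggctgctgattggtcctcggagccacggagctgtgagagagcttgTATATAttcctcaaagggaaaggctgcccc

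Both strands of all listed stretches were searched. The CArG box, a run of A and T between CC and GG that serum response factor reads in smooth muscle genes, had 0 matches among the 8 members and matched in 1.47% of 32851 stretches. A form that allows 1 G or C in the run was added after that result was known; it matched in 8.59% of all stretches and, among the members, only in Acta2, as CCCTATATGG at -84 to -75 and CCTTGTTTGG at -34 to -25 from the start. TGGGAA, the core read by the Notch partner RBPJ, occurs in 21.6% of all stretches and in Acta2, where it overlaps the second of those matches (-27 to -22), and in Abcc9. ACGTG, the core of the hypoxia response element, occurs in 16.6% of stretches and among the members in Notch3. TATAAA or TATATA, letters of a TATA box, occur in 15.6% of stretches and among the members in Rgs5, at -30 to -25. The Cspg4 stretch holds none of these letters. A match describes letters and is not a bound site.

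Values are log2 expression as deposited, where 1 unit is a 2-fold change, and ± after a difference is its standard error. A gene was called at an adjusted p under 0.05 in limma's test with Benjamini-Hochberg adjustment over all 12393 genes. The medians of the arrays ran from 8.16 to 8.49 and arrays of 1 group correlated at r = 0.964 to 0.997. Arrays give no counts, so their number, 3 in each group, limits the precision. The 10 genes used to check the tissue as retina had list means of 11.48 to 12.19 on all arrays. Several measures moved with injection day. The spiked-in hybridisation controls (18 probe sets, no retinal RNA) averaged 13.4 ± 0.125 (SD, n = 12) on arrays of P12 injections and 12.5 ± 0.306 (SD, n = 18) on all others, without overlap. Means of 13 lens genes were at most 8.91 outside the P5 groups and between 7.34 and 13.98 in them. Means of 7 pigment epithelium genes reached 10.40 in the P5 groups and 8.59 elsewhere. P5 CD34 replicate 1 stood apart: its 9 microglia and macrophage genes averaged 9.44 (7.33 to 8.32 on the other P5 arrays), its retina genes 11.48 (11.61 to 12.13) and its 14 endothelial genes 8.08 (8.28 to 8.87). Results on the P5 CD34 group against saline and against the combination are therefore given with and without it; the fit of the gene lists without it was added after the data were seen.

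In untreated OIR most of the mural genes were higher than in room air. Of the 10 members 8 rose and 0 fell, against 4.56% of all genes called in that comparison. The median difference was 0.80 over the members and -0.02 over all genes. The 3 OIR arrays lay above the 3 normoxia arrays for 9 of 10 members, Anpep being the exception, as the plot of levels by group shows. How many of all genes separated in this way was not counted. Complete separation of 3 arrays from 3 has an exact two-sided permutation p of 0.1.

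**Figure D1:**
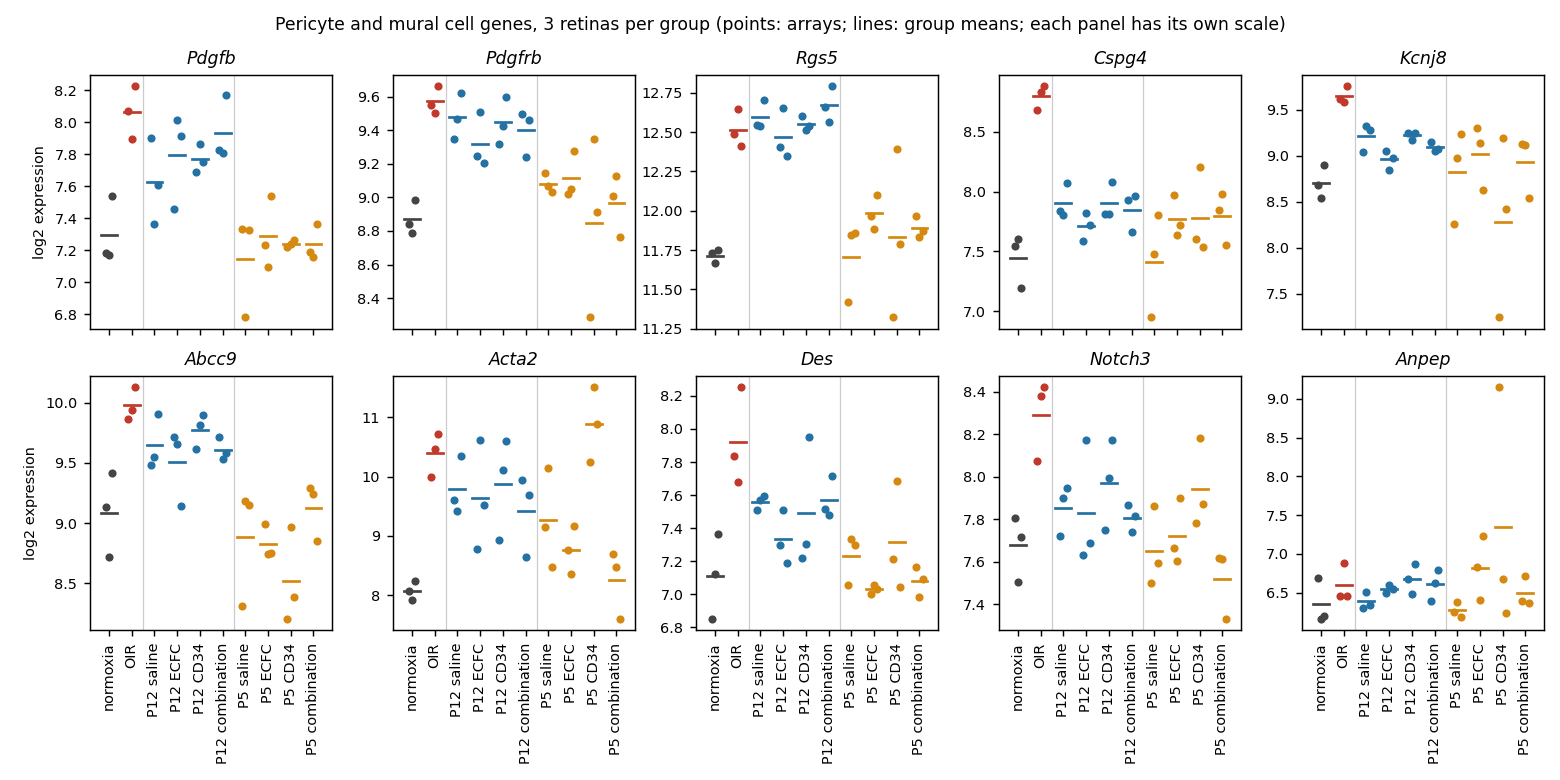
Log2 expression (vertical axis, a separate scale in each panel) of the 10 genes on each array (points) with group means (lines), 3 arrays a group; black is normoxia, red untreated OIR, blue the P12 groups and orange the P5 groups. Untreated OIR has the highest mean for 7 of 10 genes, and for Rgs5 all blue points (12.35 to 12.79) lie above the 3 black points (11.67 to 11.75).

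Pdgfb, the endothelial ligand, read 7.18, 7.17 and 7.54 in normoxia and 8.07, 7.89 and 8.22 in OIR. All OIR arrays were higher, and Pdgfb rose by 0.77 ± 0.17 (1.70-fold, limma adjusted p = 0.0066). Pdgfrb, the receptor on pericytes, read 8.84, 8.79 and 8.98 in normoxia and 9.55, 9.50 and 9.66 in OIR. The arrays did not overlap here either, and Pdgfrb rose by 0.70 ± 0.17 (1.63-fold, limma adjusted p = 0.013). Of the 6 PDGF ligands and receptors, which include both genes, 3 rose and 0 fell; the third was Pdgfra, the receptor of retinal astrocytes and fibroblasts, at 0.61 ± 0.15 (limma adjusted p = 0.013).

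Cspg4 codes for NG2, a proteoglycan on the surface of pericytes that accompany growing vessels. It read 7.54, 7.60 and 7.19 in normoxia and 8.68, 8.83 and 8.88 in OIR, groups more than 1 log2 unit apart at their closest arrays. The rise of 1.35 ± 0.18 (2.55-fold, limma adjusted p = 5.2e-05) had the smallest adjusted p of the 10 members. Rgs5, a brake on G protein signalling in pericytes, read 11.73, 11.67 and 11.75 in normoxia and 12.49, 12.65 and 12.41 in OIR. Rgs5 rose by 0.80 ± 0.17 (1.74-fold, limma adjusted p = 0.0044), with normoxia arrays that differed from each other by far less than that.

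Kcnj8 and Abcc9 code for the pore and the regulatory subunit of the vascular ATP-sensitive potassium channel, which links metabolism to vessel tone. Abcc9 read 9.13, 8.71 and 9.42 in normoxia and 9.86, 9.94 and 10.13 in OIR and rose by 0.89 ± 0.22 (limma adjusted p = 0.018). Kcnj8 read 8.68, 8.54 and 8.90 in normoxia and 9.62, 9.59 and 9.76 in OIR. Its arrays did not overlap, but the difference of 0.95 ± 0.30 did not pass (limma adjusted p = 0.071). It passed when only these 6 arrays were fitted (limma adjusted p = 0.0079), a fit without the P5 CD34 group, in which Kcnj8 ran from 7.24 to 9.19.

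Acta2, the smooth muscle actin of arterioles and of contractile pericytes, read 8.06, 7.92 and 8.24 in normoxia and 9.9998, 10.46 and 10.72 in OIR. The groups did not overlap, and it showed the widest difference of the members, 2.32 ± 0.48 (4.99-fold, limma adjusted p = 0.0047). Its probe set ends in _s_at, the maker's mark for probes that can match more than 1 transcript. The related actins on the array went different ways, with Actg2 at 1.37 ± 0.32 (limma adjusted p = 0.012) and Acta1 at -0.22 ± 0.31 (0.72). The Actg2 means, 4.02 and 5.38, both lie within the readings of 3 Y-linked genes on arrays with high Xist (3.61 to 5.41), genes that should be silent there, so its difference is no exact size. Whether these actins add to the Acta2 reading was not tested. Des, the intermediate filament desmin, read 6.85, 7.12 and 7.36 in normoxia and 7.83, 7.68 and 8.25 in OIR, again without overlap, and rose by 0.81 ± 0.18 (limma adjusted p = 0.0066).

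Notch3, the receptor through which mural cells receive Notch signals from endothelium, read 7.81, 7.51 and 7.72 in normoxia and 8.07, 8.38 and 8.42 in OIR. The rise of 0.61 ± 0.15 (limma adjusted p = 0.015) was the smallest among the called members. Anpep codes for CD13, a surface peptidase of pericytes that myeloid cells also carry. It read 6.68, 6.16 and 6.20 in normoxia and 6.45, 6.88 and 6.46 in OIR, and its difference of 0.25 ± 0.41 (95% interval -0.60 to 1.10, limma adjusted p = 0.77) was within the spread of the arrays.

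The call of 5 members rested on 1 array: without OIR replicate 3, Pdgfb, Pdgfrb, Abcc9, Des and Notch3 kept differences of 0.55 to 0.81 but had limma adjusted p from 0.06 to 0.11, leaving 3 called. Abcc9 and Notch3 also lost their calls without normoxia replicate 2 (limma adjusted p = 0.086 and 0.066), and Notch3 without OIR replicate 2 (0.069). Pdgfrb was at 0.051 after median centring, and Des and Notch3 at 0.062 and 0.059 when only these 6 arrays were fitted. Rgs5, Cspg4 and Acta2 were called under all 15 alternatives run for this comparison.

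Other genes of mural cells went the same way in part. Of 21 measured, 10 rose and 0 fell, with a list median of 0.31. The widest rises were Mcam, an adhesion molecule of mural and endothelial cells, at 1.95 ± 0.19, Higd1b at 1.17 ± 0.25, the forkhead factor Foxc1 at 1.13 ± 0.23 and Heyl, a target of Notch3, at 1.12 ± 0.24. Of 14 contractile smooth muscle genes 4 rose, namely the tropomyosin Tpm2 (1.74 ± 0.36), the myosin light chain Myl9 (1.49 ± 0.29), Tagln (1.16 ± 0.28) and the near-background Actg2. Smooth muscle myosin Myh11 (0.21 ± 0.35) and calponin Cnn1 (0.06 ± 0.19) did not pass. On the same arrays 9 of 14 endothelial genes rose, led by Vwf (1.95 ± 0.21), Robo4 (1.58 ± 0.25), Emcn (1.52 ± 0.20) and Cdh5 (1.48 ± 0.19), and the endothelial list mean was 8.21 to 8.37 in normoxia and 9.24 to 9.30 in OIR. Of 9 fibroblast genes 3 rose, Col1a1 (2.21 ± 0.58), Col3a1 (1.83 ± 0.40) and Pdgfra, and the list mean ran from 6.75 to 7.09 and from 7.14 to 7.77. Of 9 microglia and macrophage genes 3 rose too, C1qc (1.71 ± 0.43), C1qb (1.41 ± 0.38) and Aif1 (1.22 ± 0.34) (list means 6.91 to 6.97 and 7.73 to 7.87). Of 4 retinal astrocyte genes 1 rose, Pdgfra, and 3 had an unadjusted p under 0.05; Gfap (2.06 ± 0.72, limma adjusted p = 0.1) and Aldh1l1 (0.63 ± 0.23, 0.12) did not pass, and the list mean ran from 7.81 to 8.07 in normoxia and from 8.58 to 9.14 in OIR. Genes of skeletal muscle (0 of 10), lens (0 of 13), pigment epithelium (0 of 7) and retina (0 of 10) had no calls in limma's test, with 1, 0, 2 and 2 members at an unadjusted p under 0.05. The part that endothelium, fibroblasts, microglia and astrocytes had in the mural values was not tested.

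Saline at P12 was compared with untreated OIR as the control for injection. Of the members 2 fell, Cspg4 and Notch3, and 0 rose, where 21.3% of all genes were called. That count is near the share over all genes. The median difference was -0.40 over the members and -0.03 over all genes, a value that median centring moved to 0.09. Cspg4 read 7.84, 7.80 and 8.07 after saline, below all 3 OIR arrays, and fell by 0.90 on the log2 scale (limma adjusted p = 0.0011). Notch3 read 7.72, 7.90 and 7.95 and fell by 0.44 (limma adjusted p = 0.039), a call that ended after quantile normalization (0.13), after median centring (0.15), with the hybridisation control mean in the fit (0.13) and without any of 5 of the 6 arrays. Rgs5, at 12.54, 12.54 and 12.71, overlapped with OIR (0.08 ± 0.17, limma adjusted p = 0.77), as did Pdgfrb (-0.09 ± 0.17, 0.73). Further Rgs5 probe sets averaged 12.59, 11.95 and 11.47 after saline and 12.32, 11.76 and 11.02 in OIR, the first and last without overlap. Pdgfb (-0.44 ± 0.17, 0.064), Acta2 (-0.61 ± 0.48, 0.39) and Abcc9 (-0.33 ± 0.22, 0.3) overlapped with OIR, while Kcnj8 (-0.44 ± 0.30, 0.32) and Des (-0.36 ± 0.18, 0.15) did not overlap and did not pass. The arrays also differed in hybridisation controls (13.25 to 13.48 after saline, 12.44 to 12.52 in OIR), and Cspg4 was at -0.63 ± 0.25 (limma adjusted p = 0.091) once that mean entered the fit. Of the 21 other mural genes Gucy1a1 rose (0.39 ± 0.12) and Slc19a1 and Cox4i2 fell by 0.60 and 0.58. Of 14 contractile genes Synpo2 rose (0.51 ± 0.18) and Smtn fell by 0.77, and of 14 endothelial genes 2 rose and 2 fell.

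Saline at P5 against untreated OIR shares the 3 OIR arrays with the comparison of OIR and normoxia. Of the members 6 fell, Pdgfb, Rgs5, Cspg4, Abcc9, Des and Notch3, and 0 rose, against 8.69% of all genes called. The median difference was -0.82 over the members and 0.02 over all genes, and 9 of 10 members had arrays that did not overlap. The share of all genes without overlap was not counted here either. Cspg4 read 6.95, 7.48 and 7.80 and fell by 1.39 (limma adjusted p = 0.00017). Abcc9, at 8.31, 9.18 and 9.15, fell by 1.10 (limma adjusted p = 0.0033), and Pdgfb, at 7.33, 6.78 and 7.32, by 0.92 (0.0017). Rgs5 read 11.42, 11.84 and 11.86 and fell by 0.81 (limma adjusted p = 0.0036). Des and Notch3 fell by 0.69 (limma adjusted p = 0.016) and 0.64 (0.0092); both calls ended without P5 saline replicate 1 or without OIR replicate 3, with 4 members then called. Pdgfrb (-0.49 ± 0.17, limma adjusted p = 0.068) and Kcnj8 (-0.83 ± 0.30, 0.086) lay below OIR on all arrays without passing. Acta2, at 9.16, 10.14 and 8.48, overlapped with OIR (-1.14 ± 0.48, limma adjusted p = 0.15). With array weights 9 members were called, all but Anpep, with Pdgfrb at -0.50 (limma adjusted p = 0.0046), Kcnj8 at -0.55 (0.036) and Acta2 at -1.32 (0.048). When only these 6 arrays were fitted Cspg4 alone was called.

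In the same comparison 6 of the 21 other mural genes fell, led by Mcam (by 1.38), Higd1b (0.91), Heyl (0.81) and Foxf2 (0.80), and P2ry14 rose (0.60 ± 0.19). Of 14 contractile genes 5 fell, among them Tpm2 (by 1.72), Tagln (by 1.05) and Myl9 (by 1.03); another was Actg2, whose means of 5.38 and 4.16 lie within the readings of silent genes. Of 14 endothelial genes 9 fell, led by Robo4 (by 1.35), Cdh5 (1.27), Emcn (1.24) and Eng (0.96), and all 13 lens genes and 6 of 7 pigment epithelium genes rose. The lens list mean was 10.60 to 13.66 after saline at P5 and at most 6.98 in OIR. With it in the fit 6 members were called: Cspg4 was at -1.46 and Rgs5 at -1.23 (limma adjusted p = 0.012 and 0.0072), Kcnj8 and Pdgfrb passed (0.034 and 0.015), and Pdgfb and Des did not (0.069 and 0.16).

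Against normoxia, saline at P5 had 0 members called by limma, with 1 at an unadjusted p under 0.05, where 8.1% of all genes were called. That gene was Acta2, whose 3 arrays lay above the 3 normoxia arrays by 1.19 ± 0.48 (limma adjusted p = 0.14). Rgs5 differed by -0.01 ± 0.17 (95% interval -0.35 to 0.33), Cspg4 by -0.04 ± 0.18 (-0.42 to 0.34) and Pdgfrb by 0.21 ± 0.17 (-0.14 to 0.55), the last with all 3 arrays above normoxia. For the probe sets that stand for these 3 genes, the intervals leave out a difference as wide as that between OIR and normoxia. A further Rgs5 probe set was higher without overlap, at a mean of 10.25 after saline (lowest 9.92) and 9.59 in normoxia (highest 9.78). The remaining Rgs5 probe sets overlapped, at 11.17 and 10.54 after saline and 11.10 and 10.65 in normoxia. No gene of the other mural and contractile lists passed (0 of 21 and 0 of 14 by limma, 6 and 2 at an unadjusted p under 0.05).

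Between the saline groups, 4 members were lower at P5, Pdgfb, Rgs5, Cspg4 and Abcc9, and 0 were higher, against 27.7% of all genes called. Rgs5 fell by 0.89 (limma adjusted p = 0.0003) and Abcc9 by 0.77 (0.011), each without overlap of arrays. Cspg4 fell by 0.50 (limma adjusted p = 0.046) and Pdgfb by 0.48 (0.034), calls that held in 6 and 9 of 15 alternatives. Both ended without P12 saline replicate 1 or 3, without P5 saline replicate 2, with the lens list mean in the fit and when only these 6 arrays were fitted. Pdgfb was at -0.12 (limma adjusted p = 0.76) with the hybridisation control mean in the fit. Cspg4 was at -0.27 (limma adjusted p = 0.28) without P5 saline replicate 1 and at -0.30 (0.07) with array weights, and also lost its call without P12 saline replicate 2 and with a replicate block; that of Abcc9 without P12 saline replicate 3 (limma adjusted p = 0.068) or P5 saline replicate 1 (0.097). Rgs5 alone was called without P12 saline replicate 3. With the hybridisation control mean in the fit Rgs5 was at -0.60 ± 0.26 (limma adjusted p = 0.081), and with the lens list mean at -1.33 (0.00061). Of the other mural genes 8 of 21 fell, led by Mcam (by 1.17), Higd1b (0.77), Gjc1 (0.59) and S1pr3 (0.58), and Slc19a1 (0.65 ± 0.10) and P2ry14 (0.59 ± 0.19) rose. Of 14 contractile genes 4 fell, Tpm2 (by 1.20), Tagln (0.85), Myl9 (0.77) and Myocd (0.47). Of 14 endothelial genes 7 fell and 0 rose, led by Emcn (-1.498), Pecam1 (-1.38), Cdh5 (-1.01) and Erg (-0.99), with list means of 8.30 to 8.66 after saline at P5 and 9.12 to 9.18 at P12. The part of endothelium in the mural values was not tested.

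**Figure D2:**
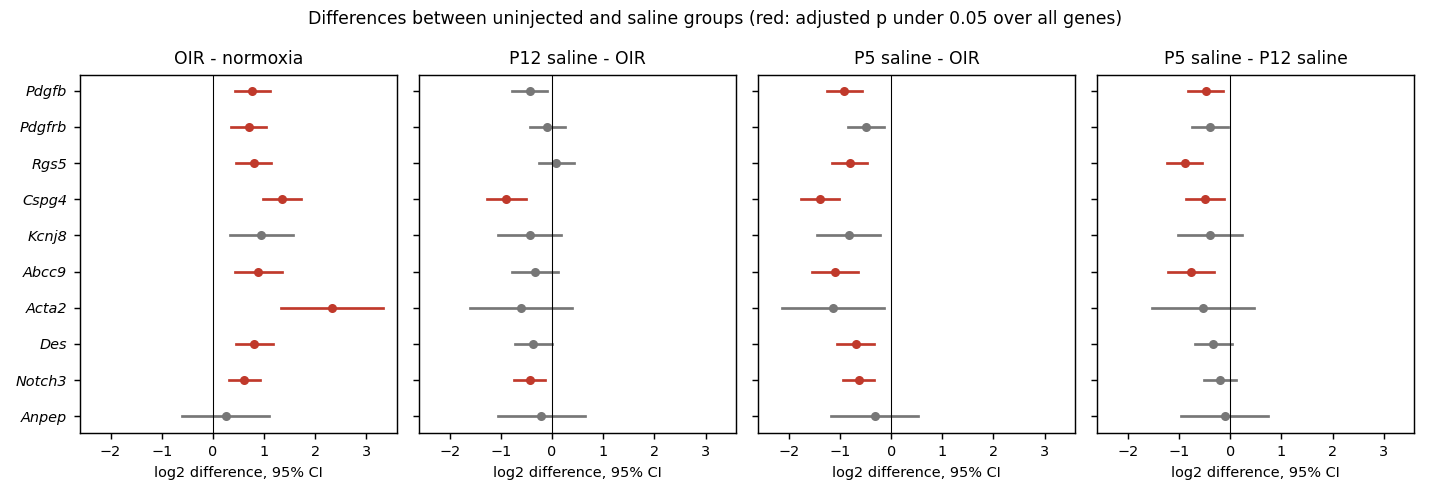
Log2 differences (horizontal axis) of the 10 genes with 95% confidence intervals between uninjected and saline groups, 3 arrays a group, from the fit over all 30 arrays; red marks an adjusted p under 0.05. For OIR against normoxia 8 red intervals lie to the right of 0, and 2, 6 and 4 lie to the left in the other panels.

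The series' title ties the combination of cells to pericyte coverage, and the arrays allow the RNA of mural genes to be compared between cells and saline of the same injection day. At P12, limma called 0 members with ECFC, CD34+ cells or the combination (0 at an unadjusted p under 0.05 in each), where 0.0161%, 0% and 0% of all genes were called. At an unadjusted p under 0.05 there were 1996, 643 and 1226 genes. After the combination Pdgfb read 7.83, 7.81 and 8.17 and after saline 7.90, 7.36 and 7.61. These groups overlapped (0.31 ± 0.17, 95% interval -0.03 to 0.66, limma adjusted p = 0.51). The second Pdgfb probe set pointed the other way, also with overlap, averaging 5.93 after the combination and 6.16 after saline. Pdgfrb read 9.50, 9.24 and 9.46 after the combination and 9.35, 9.47 and 9.62 after saline (-0.08 ± 0.17, interval -0.43 to 0.26). Rgs5 read 12.66, 12.56 and 12.79 after the combination (0.07 ± 0.17, interval -0.27 to 0.42). Cspg4 read 7.92, 7.66 and 7.96 (-0.06 ± 0.18, interval -0.43 to 0.32). None of these 4 intervals, each of the probe set that stands for its gene, went below -0.43 or above 0.66. The second Cspg4 probe set was higher without overlap of arrays. It read 6.83 to 7.37 (mean 7.05) after the combination and 6.67 to 6.76 (mean 6.70) after saline. Acta2 was the least certain, at 9.95, 8.65 and 9.68 (-0.36 ± 0.48, interval -1.36 to 0.63).

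ECFC alone at P12 gave values from -0.26 ± 0.30 (Kcnj8) to 0.17 ± 0.17 (Pdgfb), and CD34+ cells alone from -0.07 ± 0.18 (Des) to 0.29 ± 0.41 (Anpep). The second Pdgfb probe set averaged 5.82 after ECFC and 5.93 after CD34+ cells, lower than 6.16 after saline, with overlap of arrays. With array weights, Pdgfrb (-0.27 ± 0.10, limma adjusted p = 0.046) and Abcc9 (-0.43 ± 0.14, 0.033) passed after ECFC. The combination against ECFC and against CD34+ cells at P12 had 0 members called by limma (0 at an unadjusted p under 0.05 in both), as had 0% of all genes in each, with 263 and 561 genes at an unadjusted p under 0.05. Across the PDGF, other mural, contractile and endothelial lists limma called 0 genes in any P12 comparison of cells with saline. At an unadjusted p under 0.05, ECFC had 0, 2, 2 and 2 genes in these lists, CD34+ cells 0, 1, 0 and 0, and the combination 0 in each. The widest values between the combination and single cells were Des at 0.24 ± 0.18 against ECFC and Acta2 at -0.46 ± 0.48 against CD34+ cells.

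At P5, limma called 0 members with ECFC and 0 with the combination, where 0% and 0% of all genes were called (779 and 978 at an unadjusted p under 0.05). Of the members 0 and 2 had an unadjusted p under 0.05, the 2 being Cspg4 and Acta2. Cspg4 read 7.85, 7.98 and 7.55 with the combination and 6.95, 7.48 and 7.80 with saline (0.38 ± 0.18, 95% interval 0.01 to 0.76, limma adjusted p = 0.63). Similar values came from ECFC (0.37 ± 0.18) and CD34+ cells (0.37 ± 0.18), which share the saline arrays. Acta2 read 8.69, 8.48 and 7.60 with the combination and 9.16, 10.14 and 8.48 with saline (-1.01 ± 0.48, interval -2.00 to -0.01, limma adjusted p = 0.63). Neither difference passed, and in both genes the arrays overlapped. Pdgfb (0.09 ± 0.17), Pdgfrb (-0.11 ± 0.17) and Rgs5 (0.18 ± 0.17) lay near 0 with the combination. The PDGF, other mural, contractile and endothelial lists had 0 genes called by limma with ECFC (0 at an unadjusted p under 0.05) and with the combination (0, 3, 0 and 0). Rgs5 read 11.97, 11.88 and 12.10 with ECFC, above all 3 saline arrays, without passing (0.28 ± 0.17, limma adjusted p = 0.845). The further Rgs5 probe sets overlapped, with means of 11.42, 10.65 and 10.28 with ECFC and 11.17, 10.54 and 10.25 with saline. Against ECFC the combination had 0 members called by limma (0 at an unadjusted p under 0.05, and 0% of all genes called, 151 at an unadjusted p under 0.05).

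**Figure D3:**
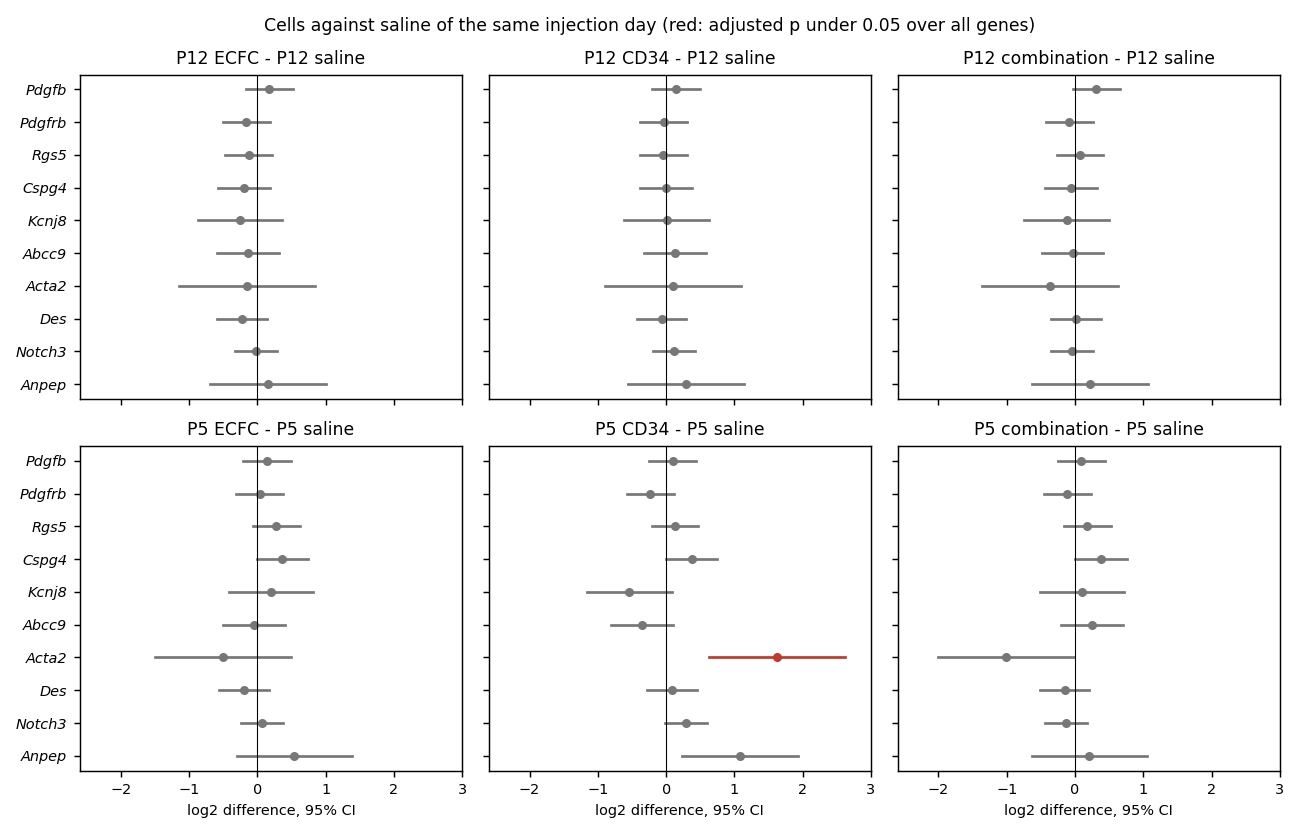
Log2 differences (horizontal axis) of the 10 genes with 95% confidence intervals for cells against saline, 3 arrays a group, P12 injections above and P5 injections below; red marks an adjusted p under 0.05. Acta2 after CD34+ cells at P5 (1.62) is the only red interval among 60.

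With CD34+ cells at P5 1 member rose, Acta2, and 0 fell, where 8.46% of all genes were called, so the count is near that share. Acta2 read 10.25, 11.51 and 10.90 after CD34+ cells and 9.16, 10.14 and 8.48 after saline, so all 3 arrays were higher and it rose by 1.62 ± 0.48 (3.08-fold, limma adjusted p = 0.038). It was the highest group mean for Acta2 in the series, 10.88 ± 0.63 (SD, n = 3), above untreated OIR at 10.39 ± 0.37 (SD, n = 3), with which its arrays overlapped. Without replicate 1, the array that stands apart, the rise was 1.94 (limma adjusted p = 0.03). The call ended without P5 saline replicate 1 (limma adjusted p = 0.081) or 3 (0.19) and without P5 CD34 replicate 2 (0.12) or 3 (0.077), and when only these 6 arrays were fitted (0.33). The second Acta2 probe set, near background at a mean of 5.77, did not pass (-0.35 ± 0.20, adjusted p = 0.32 over all probe sets by limma).

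Among the 14 contractile genes Tpm2 rose too, from 7.15, 8.26 and 7.71 to 9.11, 9.74 and 8.53 (1.42 ± 0.36, limma adjusted p = 0.017), and by 1.42 (0.041) without replicate 1. Sncg, in the retina also a gene of ganglion cells, fell by 2.09 (limma adjusted p = 0.012), a call that ended without replicate 1 (-1.31, 0.081). Tagln (0.65 ± 0.28), Myl9 (0.42 ± 0.29) and Myh11 (0.37 ± 0.35) did not pass with all arrays, and without replicate 1 Myh11 passed (0.97 ± 0.28, limma adjusted p = 0.04). Of the other mural genes Zic1 rose (1.45 ± 0.40) and Ebf1 and Gucy1a1 fell by 1.02 and 0.63. Without replicate 1 Gucy1a1 alone of these was called (-0.51, limma adjusted p = 0.013), while Zic1 was at 1.35 (0.085) and Ebf1 at -0.78 (0.12).

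Genes of other cell types moved on these arrays. With all arrays 4 of 9 fibroblast genes rose, Fbln1 (2.24 ± 0.61), Col1a1 (1.94 ± 0.58), Col1a2 (1.63 ± 0.39) and Col3a1 (1.39 ± 0.40), and the fibroblast list mean was 8.17 to 8.44 against 6.98 to 7.50 after saline. Without replicate 1 these 4 were at 2.14, 1.90, 1.15 and 1.19 and lost their calls (limma adjusted p from 0.07 to 0.12), and Dcn passed (1.85 ± 0.50, 0.031). Of 9 microglia and macrophage genes C1qb, Aif1 and Csf1r rose with all arrays; without replicate 1 limma called 0 (2 at an unadjusted p under 0.05). The microglia list means were 9.44 in replicate 1 and 7.52 and 8.28 in the other 2 arrays, against 7.33 to 7.97 after saline. Of 10 retina genes 4 fell, and 2 without replicate 1, among them the ganglion cell gene Rbpms (by 1.17 and 0.92), while Thy1 fell by 1.28 with all arrays and was at -0.80 (limma adjusted p = 0.13) without it. Skeletal muscle genes had 0 of 10 called by limma with all arrays (2 at an unadjusted p under 0.05) and 2 without replicate 1, Tnnc2 (0.97 ± 0.26) and Tnni2 (0.81 ± 0.23). The part of these cells in the Acta2 value was not tested.

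Anpep, Kcnj8 and Pdgfrb spread widely in this group. Anpep read 9.15, 6.67 and 6.23, and its difference of 1.08 ± 0.41 from saline (limma adjusted p = 0.11) became 0.18 (0.71) without replicate 1. Kcnj8 read 7.24, 9.19 and 8.42 (-0.54 ± 0.30, limma adjusted p = 0.3), and -0.02 (0.98) without replicate 1. Pdgfrb read 8.29, 9.35 and 8.91, with replicate 1 the lowest of all 30 arrays. Without replicate 2 instead, Pdgfrb (-0.48), Kcnj8 (-0.9952) and Anpep (1.41) all passed (limma adjusted p = 0.038, 0.016 and 0.038) and Acta2 did not. Replicate 1 also had the highest microglia and macrophage list mean of the series, and the part of such cells in its Anpep level was not tested.

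The combination against CD34+ cells at P5 had 1 member called, Acta2, against 7.83% of all genes, a count near that share. Acta2 fell by 2.63 (limma adjusted p = 0.0022), the widest difference of any member in any of the 18 comparisons. Without P5 CD34 replicate 1 Acta2 fell by 2.95 (0.00093). It was not called when only these 6 arrays were fitted (limma adjusted p = 0.14). Notch3 read 7.62, 7.61 and 7.33 with the combination and 7.78, 8.18 and 7.87 with CD34+ cells, without overlap (-0.42 ± 0.15, limma adjusted p = 0.084), and at -0.51 (0.077) without P5 CD34 replicate 1. Abcc9 (0.61 ± 0.22, limma adjusted p = 0.097) and Kcnj8 (0.64 ± 0.30, 0.22) were higher on average with the combination and passed without P5 CD34 replicate 2 (0.02 and 0.0091). Of the contractile genes Tpm2 fell by 1.37 (limma adjusted p = 0.02), and Sncg (1.82 ± 0.50), Pcp4l1 (0.92 ± 0.19) and Pln (0.85 ± 0.24) rose. Without P5 CD34 replicate 1 only Pcp4l1 of these was called (0.81, limma adjusted p = 0.018), with Tpm2 at -1.38 (0.051), Sncg at 1.04 (0.19) and Pln at 0.65 (0.15), and Myh11 fell by 1.52 (0.0012). Of 10 retina genes 4 rose, and 1 without that array. Limma called 0 of 9 fibroblast genes (3 at an unadjusted p under 0.05), and without that array Dcn, which fell by 1.83. Lens genes had 0 of 13 called by limma with all arrays (3 at an unadjusted p under 0.05) and 10 lower without P5 CD34 replicate 1, whose lens list mean was 7.34 against 13.98 and 13.88 in the other 2 P5 CD34 arrays and 8.54 to 12.05 with the combination. With the lens list mean in the fit over all arrays Acta2 was at -2.29 (limma adjusted p = 0.0027).

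Whether cells acted differently at P5 and at P12 was tested as the difference of the differences. Limma called 0 members for ECFC, CD34+ cells and the combination, where 0.0323%, 1.9% and 0% of all genes were called (1480, 2102 and 1419 at an unadjusted p under 0.05). Of the members 1, 1 and 0 had an unadjusted p under 0.05. Acta2 after CD34+ cells had the widest value, 1.53 ± 0.68 (95% interval 0.12 to 2.94, limma adjusted p = 0.25), and Cspg4 after ECFC was at 0.56 ± 0.26 (0.02 to 1.09, 0.4). The rise of Acta2 at P5 was thus not shown to differ from its value at P12 (0.10 ± 0.48). By Xist the combination arrays were male at P12 and female at P5, so injection day and sex cannot be told apart in them.

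**Figure D4:**
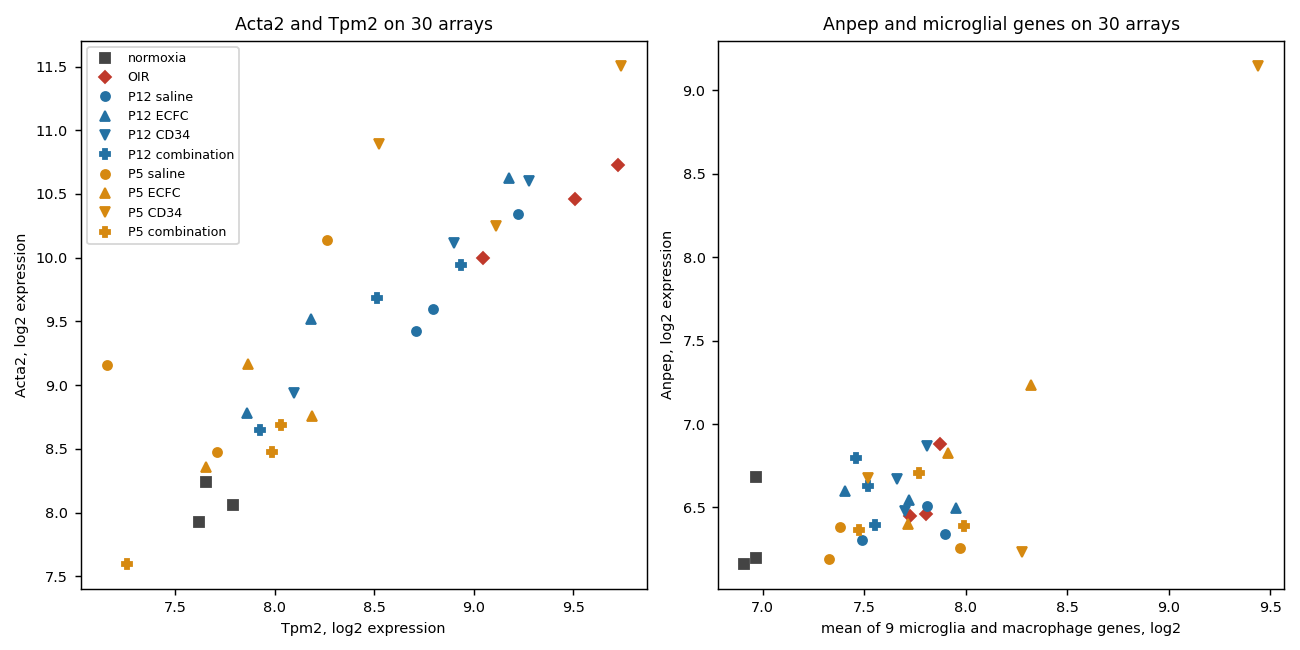
Left, Acta2 (vertical, log2) against the tropomyosin gene Tpm2 (horizontal, log2); right, Anpep (vertical, log2) against the mean of 9 microglia and macrophage genes (horizontal, log2), 1 point for each of 30 arrays, coloured and shaped by group as in the key. Acta2 and Tpm2 rise together (r = 0.88), and 1 P5 CD34 array lies alone at 9.15 for Anpep and 9.44 for the gene mean.

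The levels across the 10 groups followed a few patterns. Neighbouring groups in the order of means were separated by their arrays in 3 of 90 cases, so most steps in these orders are within the spread of the arrays. Cspg4 was highest in untreated OIR (8.80 ± 0.10, SD, n = 3) and apart from the next group, P12 saline (7.90 ± 0.15), while the other 9 groups ran from 7.41 to 7.90. Kcnj8 had the same form, with OIR at 9.66 ± 0.09 apart from P12 CD34 at 9.23 ± 0.04 (SD, n = 3). The second Cspg4 probe set did not show OIR apart. It averaged 7.04 in OIR (6.82 to 7.25) and 7.05 in the P12 combination (6.83 to 7.37). Rgs5 stood at 12.47 to 12.67 in untreated OIR and the 4 P12 groups and at 11.71 to 11.99 in normoxia and the 4 P5 groups, and the step fell between P12 ECFC (12.47 ± 0.16) and P5 ECFC (11.99 ± 0.11).

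All 12 P12 arrays lay above all 3 normoxia arrays for Pdgfrb, Rgs5 and Acta2, and below all 3 OIR arrays for Cspg4 and Kcnj8. All 12 P5 arrays lay below all OIR arrays for Pdgfb, Pdgfrb, Rgs5, Cspg4, Kcnj8 and Abcc9. By their second probe sets Cspg4 and Pdgfrb showed none of these separations. For Cspg4 the P12 combination reached 7.37 and P5 ECFC 6.92, with OIR from 6.82. For Pdgfrb P12 ECFC ran down to 8.44, with normoxia up to 8.74, and P5 CD34 reached 9.60, with OIR from 9.07. By the probe sets that stand for them, no member separated all P12 from all P5 arrays. The further Rgs5 probe sets did. On them P12 arrays ran down to 11.94, 11.67 and 10.83, and P5 arrays reached 11.71, 10.91 and 10.68. The share of all genes with such separations was not counted. By the brightest Rgs5 probe set the P12 arrays ran from 12.35 to 12.79 (median 12.55) and the P5 arrays from 11.32 to 12.39 (median 11.86). P5 CD34 replicate 2 lay inside the P12 range. Pdgfb ran from 7.36 to 8.17 (median 7.82) at P12 and from 6.78 to 7.53 (median 7.23) at P5. Acta2 spread widely within groups, with an SD of 0.93 in P12 ECFC (8.78, 10.63 and 9.52) and 0.85 in P12 CD34 (8.94, 10.11 and 10.60), against 0.16 in normoxia.

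The genes most like each member over the 30 arrays are given as a description, since the arrays share groups and processing. Rgs5 was most like Adgrl4, an endothelial adhesion receptor (r = 0.92), Ctla2a (0.91) and Gimap6 (0.91). Pdgfrb was most like Aoc3 (0.90), Lama4, a laminin of vessel basement membranes (0.89), and Adgrl4 (0.89). Abcc9 was most like Adgrl4 (0.90), Sema6d (0.89) and the endothelial Robo4 (0.86), and Cspg4 most like Unc5b (0.91), Ets2 (0.88) and Vwa1 (0.88). A different set stood beside Acta2: caldesmon Cald1 (0.90), Igfbp7 (0.89) and Tpm2 (0.88), with Tpm2 (0.88), Eng (0.83) and Tagln (0.79) beside Notch3. Pdgfb was most like Tbxa2r (0.83), Adgre5 (0.83) and Edn1 (0.83), Des most like Ctla2a (0.84), Angpt2 (0.84) and Mgp (0.81), and Kcnj8 most like Rflnb (0.88), Tac1 (0.85) and Pcdh18 (0.82). For Anpep, Srgn (0.87), P2rx4 (0.84) and Tmem140 (0.83) came first, and without P5 CD34 replicate 1 these values were 0.50, 0.32 and 0.50.

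Among the members, Pdgfrb and Rgs5 (r = 0.86), Rgs5 and Abcc9 (0.82) and Acta2 and Notch3 (0.81) varied together over the 30 arrays. Within groups, by deviations from group means, Acta2 and Notch3 (0.85), Rgs5 and Kcnj8 (0.74) and Pdgfrb and Rgs5 (0.73) did so, whereas Pdgfb and Pdgfrb did not (0.17, against 0.69 over all arrays). Anpep and Kcnj8 had r = -0.55 and a rank correlation of 0.19, which differ in sign.

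Other probe sets of a gene mostly pointed the same way in OIR against normoxia. The second Pdgfb probe set read 5.54, 5.75 and 5.12 in normoxia and 6.68, 7.21 and 7.23 in OIR (1.58 ± 0.25, adjusted p = 0.00038 over all probe sets by limma). Its normoxia readings are near background too, within or close to the readings of silent genes (up to 5.41), so this difference is no exact size. The 3 further Rgs5 probe sets gave 1.22 ± 0.22, 1.10 ± 0.17 and 1.43 ± 0.20, and the second of Notch3 gave 0.99 ± 0.17. Those of Pdgfrb (0.83 ± 0.26, limma adjusted p = 0.073) and Cspg4 (0.53 ± 0.20, 0.14) were positive without passing. The second of Des, at a mean of 4.40, read no higher than 3 Y-linked genes on arrays with high Xist (3.61 to 5.41) and gave 0.03 ± 0.13. The second of Acta2 read 5.33, 5.47 and 5.38 in OIR, at the top of that range, and averaged 5.67 in normoxia, above it. Near background as it is, this probe set did not show the rise of the first. It was at -0.28 ± 0.20 in OIR against normoxia (limma adjusted p = 0.47) and, at 6.71, 5.81 and 5.87 after saline at P5, was called higher there than in OIR (0.73 ± 0.20, 0.027), a difference that is no exact size. The Acta2 results above rest on 1 probe set.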

How the data were processed

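Total RNA of 1 retina from each pup (100 ng) was amplified and biotin-labelled for a 1-colour array, per the labels' protocols. The table deposited by the authors holds log2 expression for 22690 probe sets on 30 arrays. Partek is named in the submitters' processing notes, while background correction, summarisation and normalization are not named there or in the labels. Values were used as deposited.

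By the platform's annotation 64 probe sets were controls, 20380 had 1 symbol, 691 several and 1555 none, and 29 with 1 symbol had a gene identifier without a match in the RefSeq table. Keeping the probe set of highest mean for each symbol left 12393 genes. Groups followed the labels. No pair of arrays was identical. Residuals of arrays with equal replicate numbers correlated at -0.45 to 0.55 in 15 comparisons, and none had every pair above 0.1, so arrays were not paired.

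Limma 3.58.1 in R 4.3.3 fitted 1 mean per group over 30 arrays (20 residual degrees of freedom), with 18 comparisons. Tests were two-sided and p-values adjusted by the Benjamini-Hochberg method across the 12393 genes. The script was tested on simulated data.

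The 10 genes are all named, with up to 4 called genes of each marker list and the 3 genes most like each member among 8666 brighter ones. Myh11, Cnn1, Tagln, Myl9, Acta1, Actg2, Gfap, Aldh1l1, Dcn, Tnnc2 and Tnni2, where named beyond that rule, were picked after their values were seen. The members and lists were chosen with earlier results of these data known, so no pattern here is independent support. Alternatives were quantile normalization, median centring, dim genes left out (the lowest 30%), all probe sets tested, a replicate block, array weights, lens and hybridisation control means as covariates, only the groups compared, and leaving out each array; the lists' values without P5 CD34 replicate 1 were added after the data were seen. Promoter stretches are from RefSeq on GRCm38.p6.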

Additional observations from a re-analysis of the deposited data

How the results depend on the processing

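With 3 arrays a group precision was limited: in the P12 combination against saline the 95% interval ran from -1.36 to 0.63 for Acta2 and from -0.27 to 0.42 for Rgs5. Of 2862 values of single members under the alternatives, 2769 stayed on their side of the threshold with no called value changing sign, 56 lost and 36 gained a call, and 1 reversed: Anpep in P5 saline against P12 saline went from -0.11 to 1.37 once the lens list mean was in the fit (limma adjusted p = 0.049), and was at -1.63 with the hybridisation control mean; the cause was not tested.

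In members called, P12 saline against OIR had 1 after quantile normalization, after median centring and with the hybridisation control mean in the fit, against 2. When only the groups compared were fitted, which leaves fewer arrays to estimate the spread, the count was 1 in P5 saline against OIR, 2 in P5 saline against P12 saline, 0 in P5 CD34 against saline and 0 in the P5 combination against CD34. With array weights it was 2 in P12 ECFC against saline, 3 in P5 CD34 against saline, 3 in the P5 combination against CD34 and 1 in the CD34 effect at P5 minus P12. P5 CD34 against saline had 2 with the hybridisation control mean, and the P5 combination against CD34 had 3 with the lens list mean; the cause was not tested. Leaving out 1 array gave 3 to 8 members in OIR against normoxia, 1 to 2 in P12 saline against OIR, 4 to 6 in P5 saline against OIR, 1 to 4 in P5 saline against P12 saline, 0 to 3 in P5 CD34 against saline and 1 to 3 in the P5 combination against CD34, and 0 to 0 in the other 12.

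A replicate block gave 8 members in OIR against normoxia, 3 in P12 saline against OIR (Pdgfb added, limma adjusted p = 0.036), 6 in P5 saline against OIR and 3 in P5 saline against P12 saline (Cspg4 at 0.0504), and changed no other member count. Over all genes, the count called moved by more than 1.5 times in places. In OIR against normoxia, with 565, it was 242 without OIR replicate 3 and 935 over all probe sets, and in P5 saline against OIR, with 1077, 144 with the lens list mean, 118 when only those 6 arrays were fitted and 2753 with the hybridisation control mean. P12 saline against OIR had 1661 to 5155 and P5 saline against P12 saline 2238 to 6138 under alternatives that kept all arrays of the groups. Array weights called 3143 genes in P12 ECFC against saline in place of 2.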
